A study of Mus musculus with 46 samples.

Results

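P031 is a promoter fragment of the mouse Tfcp2l1 locus that spans the start of C1ql2. It was followed through the Upstream reporter assay of E14TG2a. These are established mouse embryonic stem cells, kept here in 2i and LIF, the inhibitors and cytokine that hold such cells in a naive pluripotent state. Its constructs were taken as all those of the Tfcp2l1 library that carry P031 at either position and in either orientation, 456 of 55980. P031 is 1 of 26 promoter fragments of that library, which also holds 232 candidate cis-regulatory elements (cCREs). It was chosen on its readout, because its mean boost index, defined further on, stood among the highest in an earlier analysis of these data. The rise of P031 behind a cCRE is therefore given below as a description, and the other comparisons carry the tests. Some of these reuse the cCRE-first values of the choice and are not independent of it. They are the comparisons of both orders, of P031 orientations after a cCRE, and of cCRE-first pairs with their cCRE alone. Constructs with P031 first or with another promoter were not part of the choice.

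All values come from 3 biological replicates of complementary DNA (cDNA) from E14TG2a cells nucleofected with the Tfcp2l1 Upstream plasmid libraries and harvested after 24 h, set by the authors against the input plasmid DNA. There was no other genotype, treatment or time. The plasmids were transient and carried no native chromatin. One plasmid mix served all replicates, so variation among the plasmids that carry the same construct is not part of the spread. Activity is a linear ratio of cDNA to plasmid DNA barcodes. The number of barcodes and reads behind a construct was not analysed here, so the depth of each value is unknown.

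A promoter is the stretch around a gene's start on which RNA polymerase assembles, and an enhancer is a regulatory element that raises the output of a promoter elsewhere. In a reporter plasmid without native surroundings, the response of a promoter to many elements shows what the DNA fragments themselves can do together. C1ql2 encodes a secreted C1q-like protein known from synapses of the brain, and Tfcp2l1 encodes a transcription factor of naive pluripotent cells. Each construct held 1 or 2 fragments upstream of the reporter. Position 2 lay next to the reporter and position 1 farther away, and a name such as E017-P031+ gives position 1 first, with the orientation of each fragment after it.

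P031 runs from chr1:120340206-120340656 (mm10). C1ql2 (gene ID 226359) occupies chr1:120340582-120343174 on the plus strand in RefSeq (GRCm38.p6, the same assembly), so the fragment holds the gene's start, the sequence before it and the first transcribed bases. The RefSeq window of 250 bases before to 50 after the start lies within P031. The bases before the start are shown for C1ql2 and for 2 promoters of the same library used for comparison. Tmem185b lies in P019, which was strong alone and had the pattern of response most like that of P031. Marco lies in P033, which was about as weak as P031 with the same cCREs. Capitals mark CG dinucleotides.
C1ql2, chr1:120340332-120340581, plus strand: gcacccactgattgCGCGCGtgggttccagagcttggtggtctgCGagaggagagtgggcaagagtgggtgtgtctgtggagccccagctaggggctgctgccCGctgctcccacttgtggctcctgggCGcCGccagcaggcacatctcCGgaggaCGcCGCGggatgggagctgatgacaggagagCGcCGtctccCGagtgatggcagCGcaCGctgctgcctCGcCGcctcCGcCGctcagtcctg
Tmem185b, chr1:119525904-119526153, plus strand: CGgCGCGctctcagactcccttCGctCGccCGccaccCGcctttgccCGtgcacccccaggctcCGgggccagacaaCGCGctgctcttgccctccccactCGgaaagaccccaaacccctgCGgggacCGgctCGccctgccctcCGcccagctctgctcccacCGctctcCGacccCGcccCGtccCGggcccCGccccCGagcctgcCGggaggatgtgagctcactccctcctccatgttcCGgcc
Marco, chr1:120505025-120505274, minus strand: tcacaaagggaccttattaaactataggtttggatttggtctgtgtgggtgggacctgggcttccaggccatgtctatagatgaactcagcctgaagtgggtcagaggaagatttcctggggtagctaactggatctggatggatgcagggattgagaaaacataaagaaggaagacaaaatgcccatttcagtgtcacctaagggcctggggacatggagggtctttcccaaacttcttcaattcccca

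The C1ql2 stretch holds 20 CG dinucleotides, the Tmem185b stretch 25 and the Marco stretch 0. Over the whole window of 300 bases, C1ql2 was 67.3% G or C with 23 CG, against medians of 52.7% and 7 over 32851 RefSeq promoter windows. Of those windows, 86.2% had a lower share of G and C and 78.5% had fewer CG. Among the 11 windows that lie inside promoter fragments of the library, C1ql2 shared the second highest G and C content with Gli2 in P013. Of 4 short motifs searched on both strands, 1 was found in the C1ql2 window. The GC box GGGCGG matched once, outside the printed bases, and occurs in 35.7% of all windows. The TATA core TATAAA (13.6% of windows), CCAAT (37.4%) and the E-box CACGTG (7.15%) had no match. P033 at Marco was 47.3% G or C. Alone it stood at 0.0400 in minus orientation, close to P031, and at 0.0627 in plus orientation.

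Alone, P031 was among the weakest promoters. In plus orientation its activity was 0.0209, 0.0407 and 0.0634 in replicates 1, 2 and 3, a mean of 0.0417 ± 0.0212 (SD, n = 3). In minus orientation it was 0.0241, 0.0434 and 0.0586, a mean of 0.0420 ± 0.0173 (SD, n = 3). Both orientations were lowest in replicate 1 and highest in replicate 3, and their ranges overlapped. The log2 difference of the plus from the minus orientation was -0.06 (SE 0.53, limma, Benjamini-Hochberg (BH) adjusted p = 0.944). By geometric mean the orientations ranked 8 and 9 from the lowest of 47 oriented promoters. Their neighbours in that order were P026- at 0.0359 and P027+ at 0.0397, and the replicate ranges of all 4 overlapped. P017+ at Inhbb, the gene of an activin subunit, stood at 0.0322, and P011- and P012+, both at Tfcp2l1, at 0.0549 and 0.116. The strongest oriented promoter, P007+ at Nifk, stood at 16.4. A construct named eempty in the file, whose content the labels do not give, gave 0.161, 0.186 and 0.190 alone. As a pair with itself it gave 0.0460, 0.0658 and 0.0654. In either orientation P031 alone lay below both in every replicate, although its range over replicates overlapped that of the pair.

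**Figure D1:**
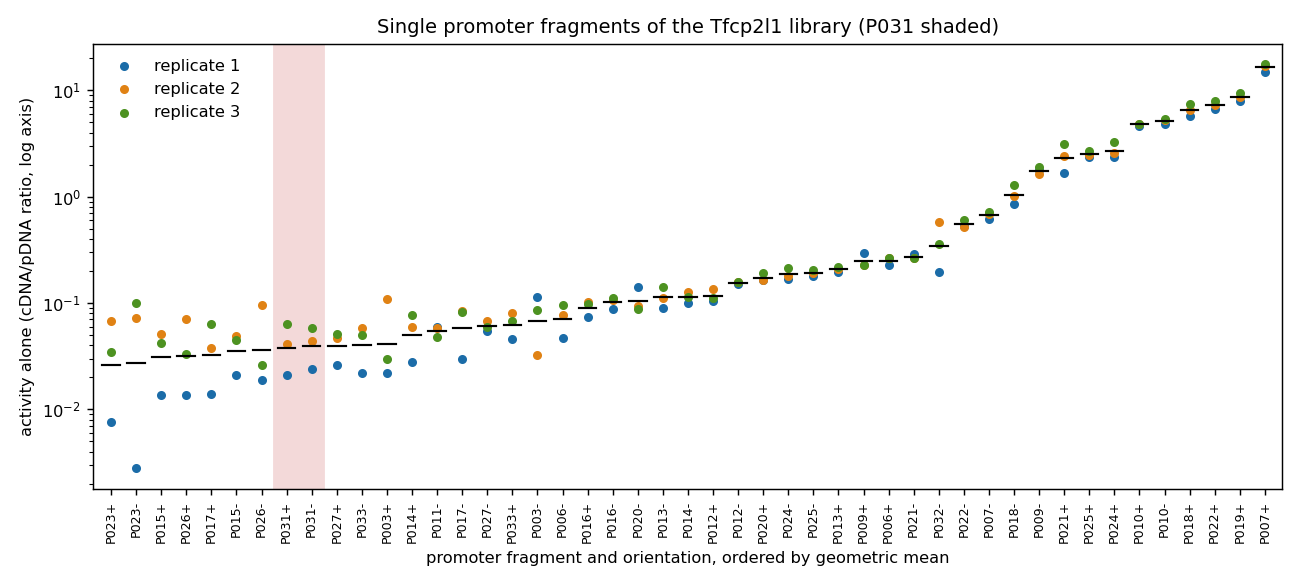
Activity of each single promoter fragment of the Tfcp2l1 library in each orientation (log axis), with 1 point per replicate and a bar at the geometric mean. P031, shaded, ranks 8 and 9 of 47 and its replicates span 0.0209 to 0.0634.

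Many P031 constructs lay at the lower end of the assay. Of its 456 constructs, 84 had a replicate at 0, 18.4% against 9.73% of the whole library. Replicate 1 was at 0 in 65 of them, replicate 2 in 13 and replicate 3 in 35. Constructs with a replicate at 0 have no log2 value and were left out of the tests. The remaining 372 constructs correlated between replicates at r = 0.85 to 0.86 on the log2 scale. Below an activity of 0.1 the median replicate SD was 1.06 log2 units over 222 constructs, and above it 0.34 over 150. Small differences among weak constructs are therefore not detectable at this spread.

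The boost index is the log2 ratio of a cCRE-promoter construct to the median construct of that promoter and orientation. Behind a cCRE, the 119 P031 constructs with 67 cCREs had median activities of 0.0322 for P031+ and 0.0286 for P031-, close to P031 alone. An index could be computed for 88 constructs with 54 cCREs. The mean over cCREs was 1.41 ± 0.49 (SD, n = 3), with 0.85, 1.74 and 1.63 from replicates 1 to 3 against the common baseline. Against each replicate's own median, the 3 means were 1.06, 0.89 and 0.88. Both kinds of baseline include constructs at 0, while the index leaves them out, which raises the mean. Of the 119 constructs, 31 (26.1%) had a replicate at 0. Few elements had a high index: the median over cCREs was 0.50, and with zeros kept and a pseudocount of 0.01 the mean was 0.71. Among 21 promoters with at least 10 cCREs, P031 ranked second, between P017 at 1.51 and P023 at 1.30. That rank is by the index with constructs at 0 left out. These are the values on which P031 was chosen, and no test was run on the index itself.

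The spread between elements was wide, from an index of -2.24 to 8.48 per construct. E017 within the Tsn gene led with 8.36 ± 0.14 (SD, n = 3). It was followed by E060 within Tfcp2l1 at 6.71 ± 0.05, E228 within Cfap221 at 6.70 ± 0.14, E166 between genes near Inhbb at 6.03 ± 0.15 and E125 within Gm41934 at 5.69 ± 0.30. E185 within Ralb reached 4.94, E294 near Marco 4.74, E161 near Gm33388 4.46, E211 near Gm29658 4.20 and E097 within Gli2 3.96. At the other end stood E046 at -2.24 ± 2.04, E138 at -1.63 ± 1.61, E055 at -1.42 ± 2.04, E205 at -1.07 ± 2.42 and E013 at -0.99 ± 1.56. Among the high values, those of E228, E125, E185, E161, E211 and E097 rest on 1 construct each. The same holds for E046, E138, E055 and E205 among the low ones. For E097 that construct is E097+P031-, while E097+P031+, at 0, 0.0107 and 0.0137, had no index. For E055, E205 and E013 the replicate SD exceeded the size of the index, while the SD of the highest 10 was at most 0.78. An index above 4 was reached by 17 constructs, and 59 of 88 had one above 0.

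Against P031 alone, limma called 26 of 88 cCRE-P031 constructs higher and 0 lower (35 at an unadjusted p under 0.05), where 24.6% of all 5510 tested pairs of the library were called higher and 19.7% lower. With the replicate block the calls were 32 higher and 2 lower, with zeros kept 26 higher and 10 lower of 119, and against the median construct 27 and 3. This is the contrast of the choice and no reading is taken from it. E017-P031+ gave 12.1, 11.6 and 10.9, and E017-P031- gave 10.3, 7.88 and 8.09. E060-P031+ gave 3.99, 4.30 and 3.60, and E166+P031+ gave 1.78, 1.64 and 1.99. All of these lay above every replicate of P031 alone, which their place among the highest indices already implies.

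The response of P031 followed the activity of the element. Over the 54 cCREs, the index correlated with the log2 activity of the cCRE alone at r = 0.76 (rho 0.61). It did not follow genomic distance, with r = 0.01 (rho -0.07) between 11.3 and 2336 kb from P031. Within 200 kb of P031 lay 7 cCREs, with indices from -0.73 to 4.74 and a median of 0.72. The nearest, E281, had 2.04 and E294, at 121 kb, had 4.74. These are descriptions over elements that share the P031 plasmids and libraries.

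Across shared cCREs, the promoters whose index was most like that of P031 were P019 at Tmem185b (r = 0.81, 46 cCREs), P017 at Inhbb (r = 0.81, 33 cCREs) and P013 at Gli2 (r = 0.75, 54 cCREs), of 18 promoters with at least 30 shared cCREs. The size of the response was another matter. Over the same cCREs the mean index was 1.48 for P031 and 0.38 for P019, which was strong alone at 8.67. It was 1.74 for P031 and 1.98 for P017. In level with the same oriented cCRE, the median log2 difference of P031 was -3.82 from P019, -1.28 from P013 and -0.21 from P017. Against P033 at Marco the median difference was 0.11, with P031 higher in 36 of 64. The index of P031 was thus high while its constructs were lower in level than those of most promoters compared, 15 of 18 by the median.

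The strong elements were set beside many promoters. E017 in minus orientation was measured before 33 oriented promoters, from 0.496 with P015- to 23.9 with P018+. The P031 constructs stood at 8.69 and 11.5, and 20 oriented promoters gave less than both. With P012- it gave 17.4, 15.7 and 18.2 in the replicates. The geometric means were 15.8 with P012+, 11.1 with P017+ and 1.09 with P011-. E060- was measured before 38 oriented promoters with a median of 3.91, and the P031 constructs gave 2.55 and 3.95. E166+ before 37 oriented promoters had a median of 2.18, and the P031 constructs gave 1.80 and 2.18. These medians include the P031 constructs, and that of E166+ is the value of E166+P031- itself. Behind E017- both P031 constructs lay above the median of 4.78. Behind E060-, P031+ lay near the median and P031- below it. Behind E166+ neither exceeded it.

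The next question was whether a pair was more active than its cCRE alone. With the cCRE first, 88 constructs were tested, 5 were higher than their cCRE alone and 48 were lower, a median log2 difference of -1.52. With P031 first, 238 of 282 constructs had no replicate at 0. Of these, 26 were higher and 70 lower, a median of -0.86. Over all 9737 tested pairs of the library, 36.5% were called higher and 23.0% lower, with a median of 0.06. The share of P031 pairs above their cCRE lay below that of the library in both orders. The library includes strong promoters, and other weak promoters had shares below it too with the cCRE first. P015 was higher in 14 of 222, P014 in 17 of 243, P006 in 20 of 334 and P033 in 35 of 417. P020 was higher in 22 of 293, P016 in 51 of 538, P012 in 27 of 246 and P013 in 84 of 422. With the promoter first, the median differences of these weak promoters ran from -1.47 for P015 to -0.27 for P020. Over the 11 cCRE-first constructs whose cCRE alone exceeded 1, the median difference was -1.02, and over the 27 such constructs with P031 first it was -0.18. Without replicate 2 the cCRE-first count fell from 53 to 33 called. The number of pairs above the sum of both fragments alone, a baseline chosen after seeing the data, was 5 with the cCRE first and 21 with P031 first. Sample titles name separate plasmid libraries for single fragments and for pairs. The eempty construct had a geometric mean of 0.179 alone and 0.0582 as a pair. Whether an offset between these plasmid libraries enters the comparisons of a pair with a fragment alone was not tested.

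**Figure D2:**
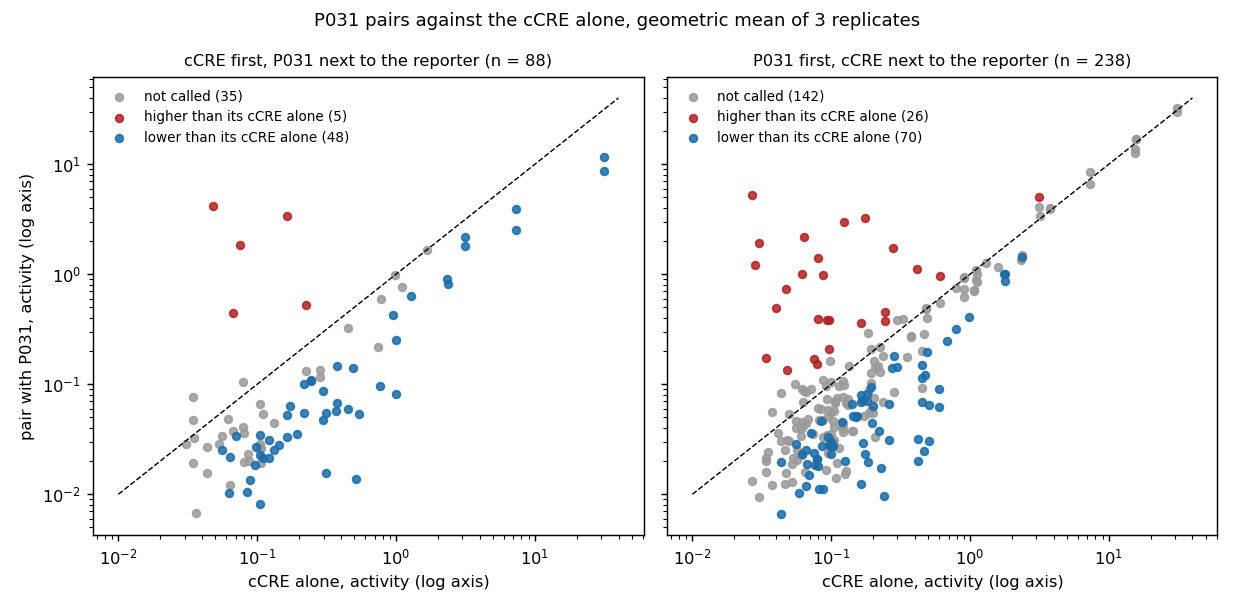
Geometric mean activity of each P031 pair against its cCRE alone (both log axes), with the cCRE first in the left panel (88 constructs) and P031 first in the right panel (238). Red points (5 and 26) were called higher than the cCRE alone and blue points (48 and 70) lower, and the dashed line marks equal activity.

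E017, E060 and E166, each measured with P031 in both orders, show the difference between positions. E017- alone gave 31.3, 29.0 and 33.5. P031+E017- gave 31.8, 31.7 and 33.7, inside or just above that range, a log2 difference of 0.05 (SE 0.17, limma, BH-adjusted p = 0.804). E017-P031+, the reverse order, lay below that at 12.1, 11.6 and 10.9, a log2 difference from E017- alone of -1.44 (SE 0.18, limma, adjusted p = 6.50e-04). E060- alone gave 7.57, 7.54 and 6.92, P031+E060- gave 7.69, 5.30 and 7.20, and E060-P031+ gave 3.99, 4.30 and 3.60. The last did not overlap the first, with a log2 difference of -0.89 (SE 0.18, limma, adjusted p = 0.00589). E166+ alone gave 3.14, 3.00 and 3.31. P031+E166+ gave 3.35, 3.62 and 5.75, all above it, but the difference of 0.39 did not pass (SE 0.26, limma, adjusted p = 0.241). P031-E166+ did pass at 5.36, 4.16 and 5.75, 0.68 above the cCRE alone (SE 0.20, limma, adjusted p = 0.0287). E301, between genes near Marco, was measured with P031 once. P031-E301- gave 1.12, 0.926 and 0.949 against 1.82, 1.69 and 1.73 for E301- alone, a fall of 0.81 (SE 0.18, limma, adjusted p = 0.00893).

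**Figure D3:**
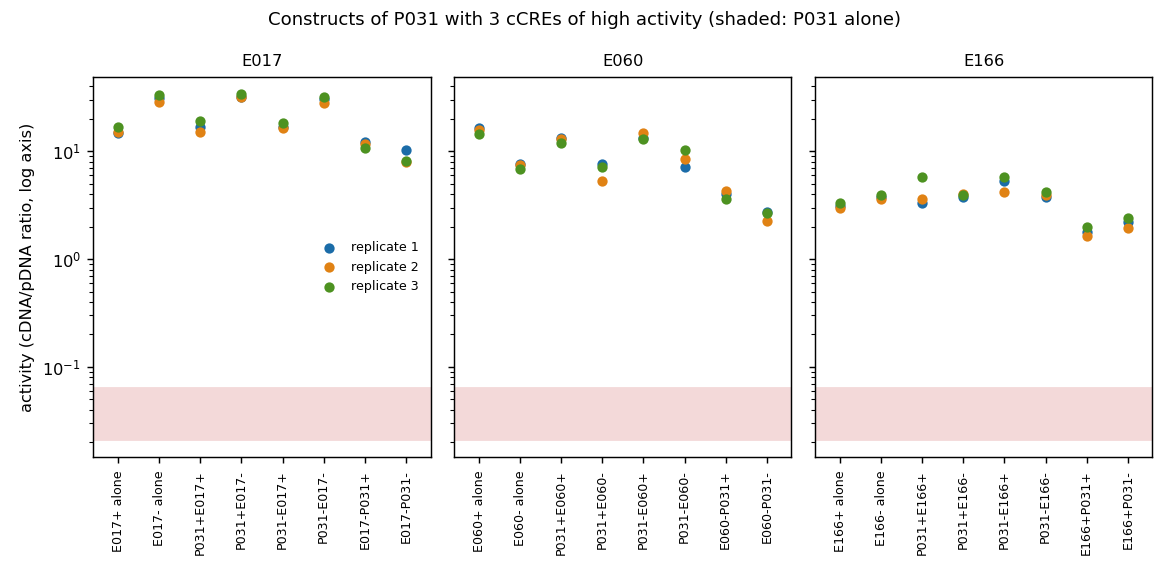
Activity in each replicate (log axis) of E017, E060 and E166 alone and in every measured construct with P031, with the range of P031 alone shaded. Constructs with P031 first lie near the cCRE alone, and those with P031 next to the reporter lie below it.

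Set against P031 alone, P031 first in a pair was called higher in 96 of 238 constructs and lower in 6, a median of 0.81. The 238 leave out 44 of 282 constructs with a replicate at 0, which can raise the share called higher and the median. All were set against the same 2 references, P031+ and P031- alone, so the calls are not independent of each other. The library's promoters in this arrangement were called higher in 23.3% and lower in 42.6% of 4720 constructs, with a median of -0.85. These shares do not rest on like baselines. P031 alone stood near the lower end of the assay, while the library includes promoters of up to 16.4 alone. Shares of other weak promoters against themselves alone are not given here, so the difference is not read as particular to P031. Against the median construct in place of P031 alone the calls were 84 higher and 25 lower. The largest rises were P031+E017- (9.74), P031-E017- (9.58), P031+E017+ (8.81), P031-E017+ (8.76) and P031-E060+ (8.45). The 6 lower constructs, with E016, E044, E065, E130, E131 and E282, fell by 1.35 to 2.58 and had activities of 0.00343 to 0.0219. With the replicate block the lower calls numbered 12, without replicate 1 they numbered 19, without replicate 3 they numbered 3, and with a prior variance that follows mean activity they numbered 0.

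The same 2 oriented fragments were measured in both orders in 75 cases, of which 48 had no zero and were tested. The cCRE-first construct, on which P031 was chosen, was higher in 4 and lower in 18, a median log2 difference of -0.99. Over 2234 such comparisons of the library 29.7% were called higher and 19.3% lower, with a median of 0.25. Of 15 promoters with at least 10 such comparisons, P031 had the second lowest median, after P014 at -1.16. The highest was P018 at Ralb, 2.12. A negative median was not particular to P031 among promoters weak alone. It was -0.72 for P015, -0.57 for P033, -0.49 for P016 and -0.45 for P020. P006 stood at -0.16, P013 at -0.01 and P012, also weak alone, at 0.42. All 6 comparisons with E017, E060 and E166 were called lower with the cCRE first. E017-P031- gave 10.3, 7.88 and 8.09 where P031-E017- gave 30.3, 28.1 and 32.0, a log2 difference of -1.79 (SE 0.21, limma, BH-adjusted p = 9.52e-04). The largest falls were in weak constructs, E075+P031+ (-2.76), E250+P031+ (-2.60), E051-P031- (-2.44), E209+P031+ (-2.16) and E242+P031+ (-2.06). Replicates 2 and 3 mattered for the count, which was 10 without the former and 12 without the latter.

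**Figure D4:**
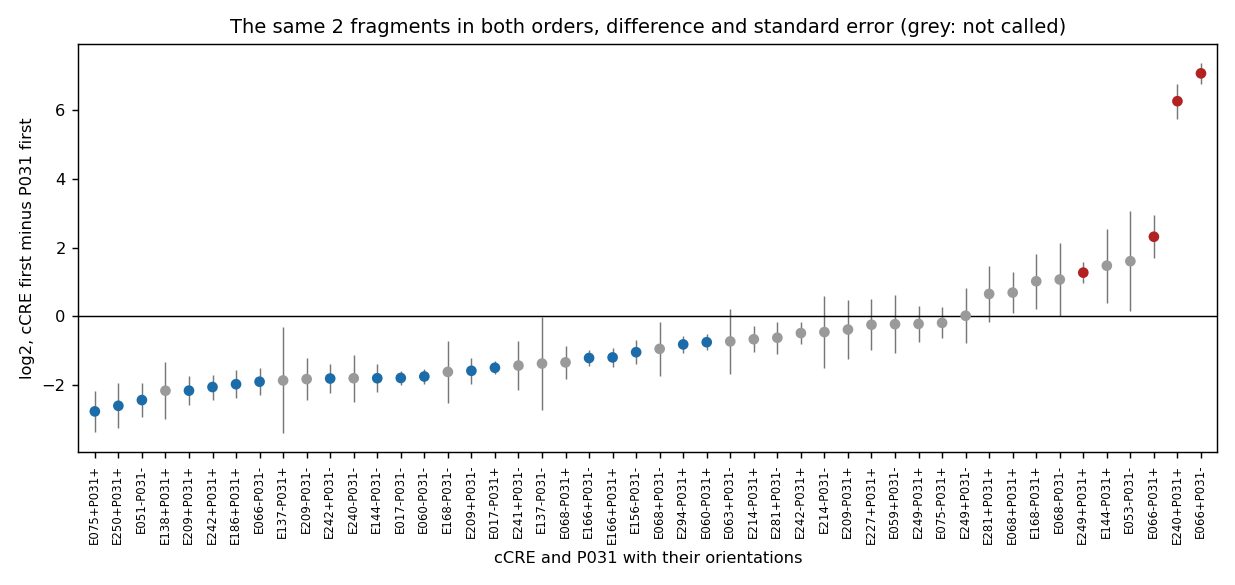
The log2 difference between orders, cCRE first minus P031 first, for the 48 comparisons (points, with the standard error as bars). Blue marks the 18 lower and red the 4 higher calls, of which E066+P031- and E240+P031+ stand far from the rest at 7.08 and 6.27.

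Few differences between the orientations of P031 were called. After the same oriented cCRE, P031+ and P031- could be compared in 24 cases. P031+ was higher in 5 and lower in 2, a median of 0.58, where 41.7% of 1716 library comparisons were called higher in plus and 8.74% lower. With zeros kept 11 of 40 were called, without replicate 2 there were 2 and without replicate 3 there were 3. E060-P031+ exceeded E060-P031- by 0.63 (SE 0.18, limma, BH-adjusted p = 0.0299), a call that the replicate block and the removal of any replicate ended. E068+P031+ (2.46), E249+P031+ (2.00), E032+P031+ (1.65) and E066-P031+ (1.37) were the other higher ones, and E068-P031+ (-1.54) and E261+P031+ (-1.83) the lower ones. The index of the 2 orientations of P031 correlated at r = 0.90 over the 24 oriented cCREs. Turning the cCRE gave r = 0.38 over 11 pairs. These are not the same elements: E017, E060 and E166, with the highest values, are among the former only. The median absolute log2 differences were 0.70 and 1.01. With P031 first, log2 activities correlated at r = 0.63 over 85 pairs when P031 was turned and at 0.73 over 55 pairs when the cCRE was turned. The order of these 2 correlations was thus the opposite. The median absolute log2 differences, 0.82 and 1.26, kept the same order.

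A small set of constructs lay far above everything else made from the same 2 fragments. E066+ alone gave 0.0347, 0.0584 and 0.0536. E066+P031- gave 3.67, 4.91 and 4.12, which was 6.46 log2 units above E066+ alone (SE 0.27, limma, BH-adjusted p = 9.13e-06). The other 7 constructs of E066 with P031 lay between 0 and 0.212. E066 lies between genes near Tfcp2l1. P031+E046+ showed the same in the other order, at 4.81, 5.40 and 5.48 where E046+ alone gave 0.0126, 0.0405 and 0.0387, a difference of 7.59 (SE 0.48, limma, adjusted p = 3.65e-05). The other 3 constructs of E046, within Clasp1, reached 0.201 at most, and E046-P031+ had the lowest index of all. E228+P031+ gave 3.34, 3.05 and 3.70 while the other 4 constructs of E228 stayed at or below 0.204. E240+P031+ gave 2.07, 1.99 and 1.47, and the other 7 of E240 stayed at or below 0.210. No barcode-level values of these constructs were analysed here, and the replicates share a plasmid mix. Whether the high values belong to the named pairs was therefore not tested, and the adjusted p-values cover the spread between replicates only. The third highest element by index, E228, thus held its place through 1 measured construct.

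**Figure D5:**
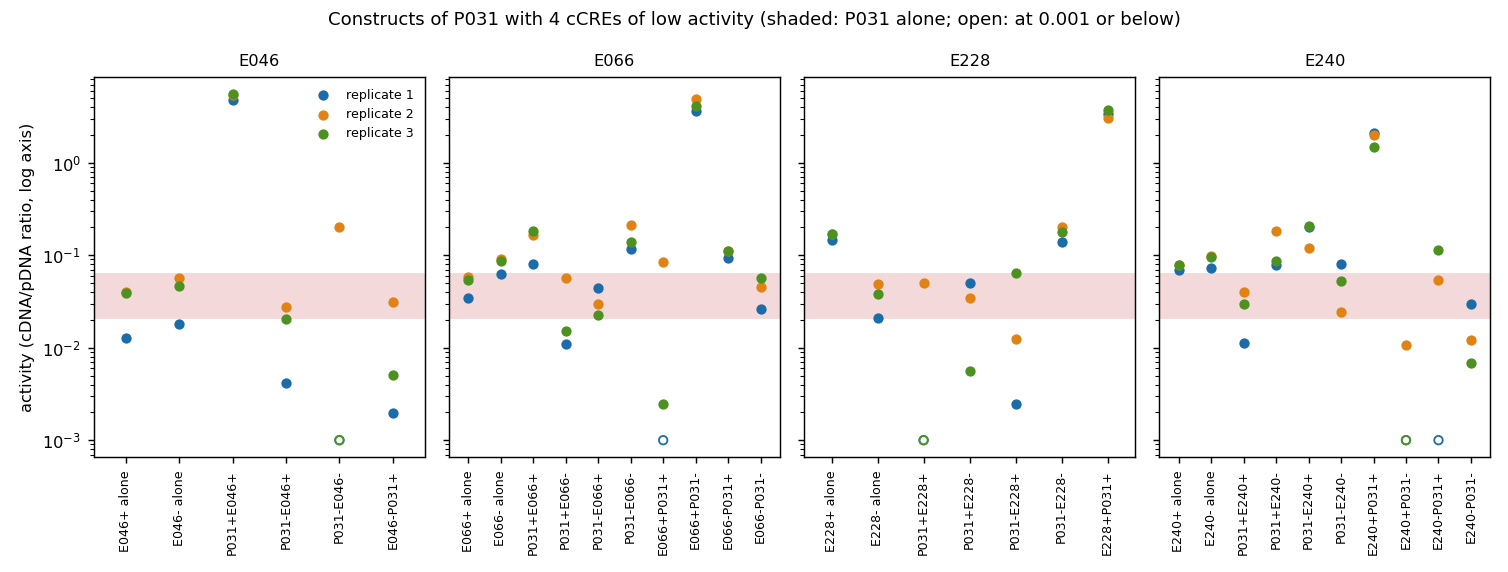
Activity in each replicate (log axis) of E046, E066, E228 and E240 alone and with P031 in every measured order and orientation, with the range of P031 alone shaded and values at 0.001 or below drawn open. In each panel 1 construct has all replicates between 1.47 and 5.48 and the others stay at or below 0.212.

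Further constructs of this kind had P031 first. P031+E053- gave 1.90, 1.88 and 1.96, P031+E234+ gave 1.11, 1.29 and 1.23, P031-E295+ gave 2.53, 1.89 and 2.21, and P031+E299- gave 3.10, 3.22 and 2.62. Their cCREs alone stood between 0.0105 and 0.148 in those orientations. Among the 298 P031 constructs whose fragments were both under 0.25 alone, 10 had all 3 replicates above 1, 3.36%. Among 5123 constructs of the other promoters with the same limits, 81 did, 1.58%. Of 12 promoters with at least 100 such constructs, P031 ranked second after P025 (4.17%), and P013 was lowest (0.780%). That rank counts 3 cCRE-first constructs, E066+P031-, E228+P031+ and E240+P031+, whose high index entered the choice of P031. With P031 first the count was 7 of 212 (3.30%), against 33 of 2403 (1.37%) for other promoters placed first. Such constructs were therefore found with other promoters too, and the difference between promoters was not tested. The element E046+ did not behave so elsewhere: after 21 other oriented promoters its highest activity was 0.487. E066+ before 38 other oriented promoters had a median of 0.0653 and a highest value of 16.1.

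P031 was also paired with other promoters. With a promoter first and P031 next to the reporter, 10 constructs were tested. Of these, 5 were higher than P031 alone and 0 lower (5 at an unadjusted p under 0.05, limma). The library's shares were 24.6% and 19.7%, which pool cCRE-promoter with promoter-promoter pairs. A share of promoter-promoter pairs alone is not given here. All 5 higher constructs held P022 at Ptpn4, a phosphatase gene, or P024 at Tmem177. P022+P031+ gave 8.19, 7.05 and 9.51, which is 7.76 log2 units above P031+ alone (SE 0.43, limma, BH-adjusted p = 1.02e-04) and near P022+ alone at 6.74, 7.28 and 7.93. P022+P031- gave 3.59, 3.89 and 2.84. P022-P031- and P022-P031+ gave 0.376 to 0.518 and 0.309 to 0.460, against 0.522 to 0.605 for P022- alone. P024+P031+ gave 0.589, 0.620 and 0.691, below 2.36, 2.57 and 3.26 for P024+ alone. The 2 tested constructs with P012 and the 3 with P016 were not called.

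With P031 first, 35 constructs were compared with the promoter next to the reporter. Of these, 6 were higher (17.1%, against 24.6% in the library) and 13 lower (37.1%, against 19.7%). The library shares again pool cCRE-promoter with promoter-promoter pairs. The weak promoters P033, P020, P016 and P006 supplied the rises. P031-P033+ gave 0.813, 0.580 and 0.432 where P033+ alone gave 0.0460, 0.0796 and 0.0674, a difference of 3.23 (SE 0.32, limma, BH-adjusted p = 8.07e-04). The others were P031-P020- (2.64), P031+P033+ (2.20), P031-P016+ (2.03), P031+P006- (1.49) and P031-P016- (1.09). Falls came with strong and weak promoters alike. P031-P010+ gave 3.16, 2.76 and 2.95 against 4.64, 4.86 and 4.85 for P010+ at Clasp1, a fall of 0.70, and P031-P010- fell by 0.87. P025+ fell by 0.87 and 1.19 behind the 2 orientations of P031, and P024- by 0.87 and 1.70. P031-P021- fell by 1.63, P031+P020+ by 2.42, P031-P013+ by 2.45, P031+P012- by 2.72, P031-P014- by 3.11, P031-P006+ by 3.29 and P031-P013- by 3.67. Of these, P031+P020+ gave 0.0159, 0.0248 and 0.0845 and P031+P012- gave 0.0257, 0.0739 and 0.00690. These 2 lay at the lower end of the assay, with replicate SDs of 1.25 and 1.71 log2 units, so the size of their falls is uncertain. The count of 19 calls was 9 without replicate 2 and 9 without replicate 3.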

How the data were processed

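Barcodes in cDNA of 3 biological replicates of the Tfcp2l1 Upstream mix were set against plasmid DNA by the authors; the deposited activity per construct and replicate is a linear ratio of cDNA to pDNA. The authors also deposited a boost index on the log2 scale, which was recomputed for 5599 cCRE-promoter constructs, and all 5065 finite indices agreed within 0.001. Bowtie2 and mm10 are named in the submitters' processing notes; barcode counting, filters and scaling are not given in the sources used here. Of the value columns, 16 were not given to a sample and none of these entered a test.

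Groups were taken from the titles. Per row of a comparison, 3 log2 activities of one construct were set against 3 of the other with limma 3.58.1 in R 4.3.3, with moderated variance and BH adjustment over all Tfcp2l1 rows at 0.05. A construct was left out where any replicate stood at 0, which has no log2 value. The order difference is cCRE first minus P031 first. Same-numbered values of both constructs come from the same transfected culture, so the numbers pair them; their deviations correlated at 0.04 to 0.21. The fit without this block is given, and the blocked one as an alternative. The fit was tested on simulated data.

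Named were the 10 highest and 5 lowest cCREs by boost index, up to 5 called pairs of largest difference in each direction and test, the cCREs E017, E060, E166 and E301, the promoters P011, P012 and P017, called partner promoters, and the 3 promoters most alike over at least 30 shared cCREs. P031, these names and the tests were chosen with earlier results of these data known. Genes and sequences came from RefSeq (GRCm38.p6). Computations used Python 3.11.15, numpy 2.4.6, pandas 2.3.3 and matplotlib 3.10.9. Alternatives were a pseudocount of 0.01 with zeros kept, a replicate block, a variance prior that follows mean activity, the median construct as baseline, and each replicate left out. The sum of both fragments alone as baseline and a mean over constructs were added after seeing the data.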

Additional observations from a re-analysis of the deposited data

How the results depend on the processing

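Total counts of called P031 pairs, both directions together, stayed within 1.5 times of those reported, apart from the totals below. Counts of one direction moved more. Lower calls for P031 before a cCRE, 6 as reported, were 12 with the replicate block or zeros kept, 3 to 19 with 1 replicate left out, 25 against the median construct and 0 with the variance prior by mean activity. For a cCRE before P031, 0 lower calls became 10 with zeros kept, 2 with the block, 1 to 3 with 1 replicate left out and 3 against the median construct. With zeros kept and a pseudocount of 0.01, 11 orientation pairs were called in place of 7. Leaving out 1 replicate at a time gave 9 to 17 calls for P031 before a promoter (19 with all), 10 to 16 for both orders (22), 2 to 5 for orientation (7) and 33 to 51 for cCRE-first pairs against their cCRE alone (53). The lower counts came without replicate 2 or 3. The cause was not tested beyond the smaller number of samples. The mean boost index of 1.41 was 0.50 as a median over cCREs and 0.71 with zeros kept. Of 515 values of 76 named pairs under these alternatives, 438 stayed on the same side of the threshold, 77 lost the call and 0 changed direction.

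The replicate block, which pairs values of the same culture, gave 34 calls in place of 26 for cCRE-first pairs against P031 alone, 114 in place of 102 for P031 first, 22 in both fits for order, and 5 in place of 7 for orientation. It ended 6 calls of named pairs. Depth per construct is unknown, and weak constructs carry the largest replicate spread.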
